A study of Mus musculus with 12 samples.

Results

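The genes that share a stretch of chromosome 10 with Ifngr1, which encodes the ligand-binding chain of the interferon gamma receptor, were examined one by one in tumor cells with wild-type (WT) RAC1 or the A159V substitution. The members were chosen by position: a row of the count table counted as a member if its gene start in the GENCODE M21 annotation lay at chr10:12900000-24800000 of mm10 and if at least 10 counts were recorded in 3 or more samples, with Ifngr1 itself left out. Of 33217 Ensembl identifiers in the table, 49 genes met both conditions. The window was drawn around Ifngr1 with genotype results of these samples known, so the genotype differences of its genes are given as a description and carry no p-value. The comparison asks whether the lower Ifngr1 level of A159V tumor cells stood alone or was shared by its neighbors on the chromosome.

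MC38, a mouse colon cancer line, was grown as tumors in C57BL/6 mice, which the methods give as 6 to 8 weeks old. All 4 groups, each of 3 mice, carried MC38 tumors and combined 1 of 2 genotypes (WT or A159V) with 1 of 2 antibodies. The WT groups carried the parental RAC1 sequence, and the A159V groups a CRISPR-Cas9 knock-in at the endogenous locus in a single-cell clone (clone 9 unless the methods say otherwise), so genotype and clone cannot be told apart. IgG was the isotype control antibody and anti-PD1 the antibody against the T cell checkpoint receptor PD1, both injected every 3 days from day 3. Tumor cells were isolated with magnetic beads from tumors harvested on day 13, and their poly-A RNA was sequenced.

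Per sample, 14053582 to 21949942 counts were assigned to genes. Levels are given as CPM, read counts relative to the library total after TMM (trimmed mean of M-values) scaling, and 3 counts correspond to 0.144 to 0.201 CPM. WT IgG replicates 1 and 4 and A159V IgG replicate 5 differed from other replicates of their group more than any other pair did, with a chi-square per degree of freedom of 133 between the WT pair and of 87.3 and 83.9 between A159V IgG replicate 5 and the others of its group. The labels call the cells adenocarcinoma, yet the defining epithelial markers were near 0: Epcam had at most 3 counts in every sample, and Epcam, Krt8, Krt18, Krt19 and Cdh1 together reached 0.703 to 4.02 CPM. Other cells were detectable after the isolation. The summed level of 4 leukocyte markers was 25.1 to 38.8 CPM in WT tumors under anti-PD1 and 3.49 to 12.8 under IgG, and in A159V tumors 3.0 to 4.52 and 3.29 to 3.7. For 4 fibroblast markers the sum ran from 234 to 456 CPM in WT IgG and from 351 to 598 with anti-PD1, while A159V samples stayed at or below 226 CPM under IgG and 185 under anti-PD1. Both marker sums were thus higher in WT anti-PD1 than in either A159V group, and the part of the fibroblast markers in the genotype differences below was not tested. Sums of T and NK cell markers were also lower in A159V under both antibodies. Myeloid markers went the other way under IgG, with 39.5 to 57.1 CPM in A159V and 25.8 to 29.7 in WT. Under anti-PD1 they overlapped (42.0 to 45.4 and 32.0 to 47.2 CPM), and B cell markers overlapped under both antibodies. With a leukocyte marker score as a covariate, an alternative chosen after seeing the data, the log2 fold change of Ifngr1 was -0.37 under IgG and -0.51 under anti-PD1, and its values without that term are given below. Under anti-PD1 the score ran from 1.33 to 1.7 in WT and from -0.973 to -0.587 in A159V. Under IgG it ran from -0.563 to 0.574 in WT and from -0.864 to -0.773 in A159V, so the score also separated the genotypes. In bulk samples, fewer cells of a type and less RNA per cell cannot be told apart. Rac1 itself was at 451 ± 55.5 CPM (WT) and 420 ± 65.1 CPM (A159V) under IgG and at 423 ± 25.6 and 372 ± 35.4 CPM under anti-PD1 (SD, n = 3), and gene counts do not show the substitution.

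Genes that lie side by side on a chromosome are often unrelated in function but share their DNA. When a stretch of one chromosome copy is lost or gained in a cell, the transcripts of most genes inside it shift in the same direction, and the shift ends where the stretch ends. The stretch around Ifngr1 holds genes of very different roles, among them Tnfaip3, which encodes the NF-kB inhibitor A20, Sgk1, a serum- and glucocorticoid-induced kinase, Cited2, a transcriptional co-regulator, Plagl1, an imprinted zinc finger gene, and Rps12, a protein of the small ribosomal subunit.

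The window holds 217 annotated genes, of which 105 had a row in the count table and 55 of these missed the count rule, 24 of them with 0 counts in all samples. Members comprised 39 protein-coding genes, 5 long intergenic RNAs, 3 snoRNAs, 1 antisense RNA and 1 processed pseudogene. All 49 passed the filter on low counts of the test. The count rule was met within each genotype by 39 members, by 9 through the WT samples alone and by 1, Vnn1, through the A159V samples alone. The 9 were Gm20655, Txlnb, Arfgef3, 4933406P04Rik, Gm26581, Gm10825, Ccn2, Enpp1 and Enpp3. The entry of those 10 members thus leaned on the genotype in which they were higher. The members closest to the limit of the rule, with at least 10 counts in 4 samples, were Arfgef3, Ccn2 and 4933406P04Rik, which had 57, 73 and 59 counts summed over the WT samples and 37, 29 and 41 over the A159V samples. Just outside the rule, with at least 10 counts in 2 samples, were Hebp2, with 90 summed counts in WT and 2 in A159V, and Platr6, with 45 and 9. Mean levels of members ran from 0.426 to 869 CPM with a median of 14.6, against 25.3 for all 14340 genes tested, and 11 members stayed below 1 CPM.

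The promoters of Ifngr1 and of the 3 members that were called in the same direction in both genotype comparisons and had a mean of at least 1 CPM are shown because the results turn on these genes. They cover 250 bases before and 50 after a RefSeq start (GRCm38.p6, the assembly behind mm10), 5′ to 3′. Capitals mark matches on either strand to any of 4 motifs. The TATA box was searched as TATAAA and the GC box as GGGCGG. The E-box was searched as CACGTG and the AP-1 site as TGACTCA. The motifs do not overlap within these 4 promoters.
Ifngr1, chr10:19591699-19591998, plus strand: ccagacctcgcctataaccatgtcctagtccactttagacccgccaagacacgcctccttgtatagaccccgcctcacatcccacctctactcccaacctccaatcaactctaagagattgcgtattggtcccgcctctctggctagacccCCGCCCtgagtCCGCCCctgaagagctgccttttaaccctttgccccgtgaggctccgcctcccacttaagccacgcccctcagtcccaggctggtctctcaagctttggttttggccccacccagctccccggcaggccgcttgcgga
Plagl1, chr10:13090582-13090881, plus strand: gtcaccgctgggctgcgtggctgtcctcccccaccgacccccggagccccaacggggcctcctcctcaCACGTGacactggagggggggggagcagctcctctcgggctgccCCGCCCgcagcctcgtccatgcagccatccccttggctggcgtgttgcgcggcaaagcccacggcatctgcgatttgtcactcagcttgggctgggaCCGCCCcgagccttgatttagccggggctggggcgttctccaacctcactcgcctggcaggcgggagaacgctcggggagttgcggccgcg
Fuca2, chr10:13500778-13501077, plus strand: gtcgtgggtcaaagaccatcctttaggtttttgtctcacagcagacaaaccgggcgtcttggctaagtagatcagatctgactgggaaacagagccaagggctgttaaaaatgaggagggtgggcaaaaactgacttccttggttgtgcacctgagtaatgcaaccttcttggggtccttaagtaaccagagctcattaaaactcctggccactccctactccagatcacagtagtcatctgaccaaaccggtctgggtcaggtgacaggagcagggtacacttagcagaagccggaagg
Cited2, chr10:17722978-17723277, plus strand: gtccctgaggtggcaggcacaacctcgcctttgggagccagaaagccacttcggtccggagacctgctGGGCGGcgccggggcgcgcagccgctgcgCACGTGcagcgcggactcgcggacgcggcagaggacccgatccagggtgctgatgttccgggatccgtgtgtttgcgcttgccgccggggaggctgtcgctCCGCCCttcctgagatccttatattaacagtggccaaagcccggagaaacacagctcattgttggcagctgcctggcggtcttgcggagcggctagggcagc
Ifngr1 held 2 GC boxes, Plagl1 and Cited2 each held 2 GC boxes and 1 E-box, and Fuca2, the member with the opposite direction, held no match to any of these letters in this window. RefSeq promoters were found for 37 of the 49 members, 49 promoters in all. A GC box was in 69.4% of them, against 35.7% of all 32851 promoters in the table, an E-box in 12.2% against 7.15%, a TATA box in 10.2% against 13.6% and an AP-1 site in 2.04% against 5.2%. The members were chosen by a count rule and the promoters set beside them were not, so nothing is read from these differences. TATA boxes were found at Adat2, Enpp3, Sgk1 and Tnfaip3, and the single AP-1 match was at Tnfaip3. A match to these letters does not show that a factor binds there.

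Ifngr1 (ENSMUSG00000020009, chr10:19591949-19610229, plus strand) was at 45.8, 40.9 and 46.3 CPM in WT IgG and 47.5, 47.7 and 57.2 in WT anti-PD1. A159V IgG samples had 30.6, 32.9 and 31.0 CPM, and A159V anti-PD1 samples 28.5, 28.1 and 31.8. Every A159V sample lay below every WT sample. The log2 fold change was -0.49 (SE 0.12) under IgG, with a 95% interval from -0.76 to -0.23, and -0.79 (SE 0.12) under anti-PD1, with an interval from -1.05 to -0.52. A halving would be a log2 fold change of -1, which lay outside the first interval and inside the second.

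The neighbors were lower in A159V as a list, but by less than Ifngr1 and unevenly. In A159V IgG versus WT IgG the median log2 fold change of the 49 members was -0.37, with quartiles of -0.94 and -0.01, and in A159V anti-PD1 versus WT anti-PD1 it was -0.23, with quartiles of -0.81 and 0.06. Over all 14340 genes tested the medians were 0.02 and 0.06. Under IgG 37 members (75.5%) were below 0 and under anti-PD1 33 (67.3%), against 48.8% and 44.7% of all genes. A gene was called when edgeR gave it an adjusted p under 0.05 and it differed by more than 0.3 on the log2 scale. By this rule 11 members were called lower and 2 higher under IgG, where 12.4% of all genes were called lower and 15.6% higher. Under anti-PD1 12 members were called lower and 1 higher, where the shares of all genes were 10.2% and 11.2%. Of the members called lower, 4 in each comparison met the count rule through the WT samples alone. Under IgG the members called lower also include Rps12 and its snoRNAs Snora33, Snord100 and Gm23130, whose reads cannot be told apart. With the leukocyte marker score as a covariate 0 members were called lower by edgeR in either comparison, with 10 and 4 below 0 at an unadjusted p under 0.05. That fit called 267 and 3 of all 14340 genes in either direction. The score also separated the genotypes, so nothing is read from the 0. Over the 39 members that met the count rule within each genotype the medians were -0.32 and -0.16, against 0.05 and 0.09 for the 13065 genes that did so over the whole table. Of these 39 members 7 and 8 were called lower, and the share called among the 13065 genes is not given here. Since the window was drawn with these differences known, nothing is read from these counts.

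The lower level did not end at the limits of the window. Flanks of the same length on both sides had medians of -0.28 (32 genes before the window) and -0.29 (28 genes after it) under IgG, and of -0.40 and -0.15 under anti-PD1. Called lower were 28.1% of genes in the flank before the window and 21.4% in the flank after it under IgG, and 34.4% and 25.0% under anti-PD1, next to 22.4% and 24.5% in the window. The share of the window under IgG includes Rps12 and its snoRNAs, which share reads. The first 2 tested genes beyond the lower limit were Utrn (log2 fold change -0.36 under IgG and -1.30 under anti-PD1) and Gm9797 (-0.13 and 0.50), and those just inside were B230208H11Rik (-1.23 and 0.07) and Stx11 (0.05 and -0.16). At the upper limit the last 2 inside were Enpp1 (-2.25 and -1.94) and Enpp3 (-1.34 and -1.55), and the first 2 outside Med23 (0.08 and -0.45) and Akap7 (-0.81 and -0.68). At the lower limit, genes that were lower and genes near 0 lay inside as well as outside. At the upper limit both genes inside were lower, and both met the count rule through the WT samples alone. Outside it, Akap7 was lower in both comparisons and Med23 was near 0 under IgG.

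**Figure D1:**
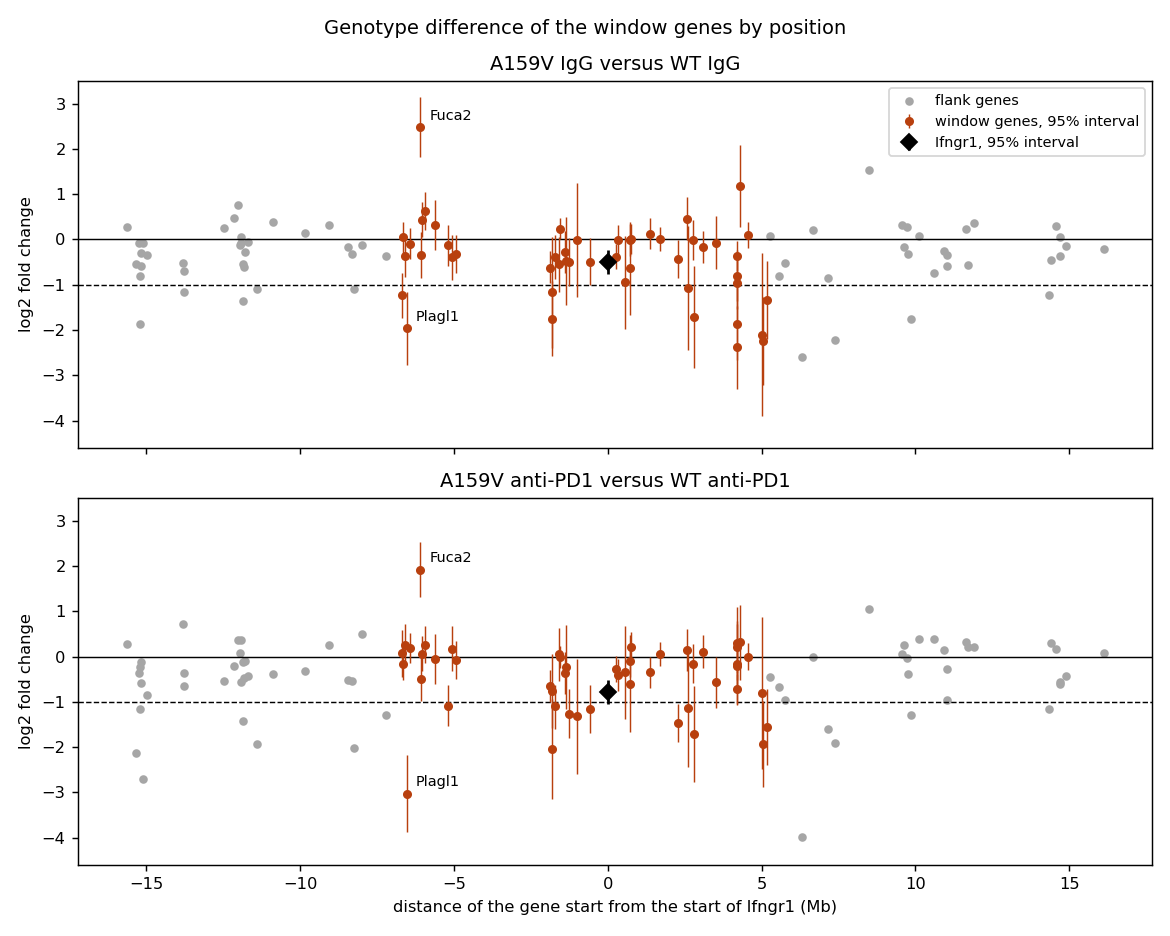
Log2 fold change of each gene (vertical axis) against the distance of its start from the start of Ifngr1 in Mb (horizontal axis), for both genotype comparisons; red points are window genes and the black diamond is Ifngr1, with 95% intervals, gray points are flank genes, and the dashed line is a halving. Window genes scattered around and below 0 beside flank genes at similar values, with Fuca2 at 2.49 and 1.92 and Plagl1 at -1.96 and -3.03.

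Chromosome 10 as a whole was lower too. The 622 other tested genes of the chromosome, flanks included, had a median of -0.20 under IgG and -0.15 under anti-PD1, 63.2% of them were below 0 in both comparisons, and 21.5% and 18.5% were called lower. Of the 19 autosomes, chromosome 10 had the lowest median in both comparisons (-0.21 and -0.17 over 674 genes), followed by chromosome 13 (-0.20 and -0.13) and chromosome 15 (-0.05 and -0.02). The highest was chromosome 4 at 0.13 and 0.18. The difference in median between the window and the rest of its chromosome was therefore smaller than that between the window and all genes, and it was not tested.

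**Figure D2:**
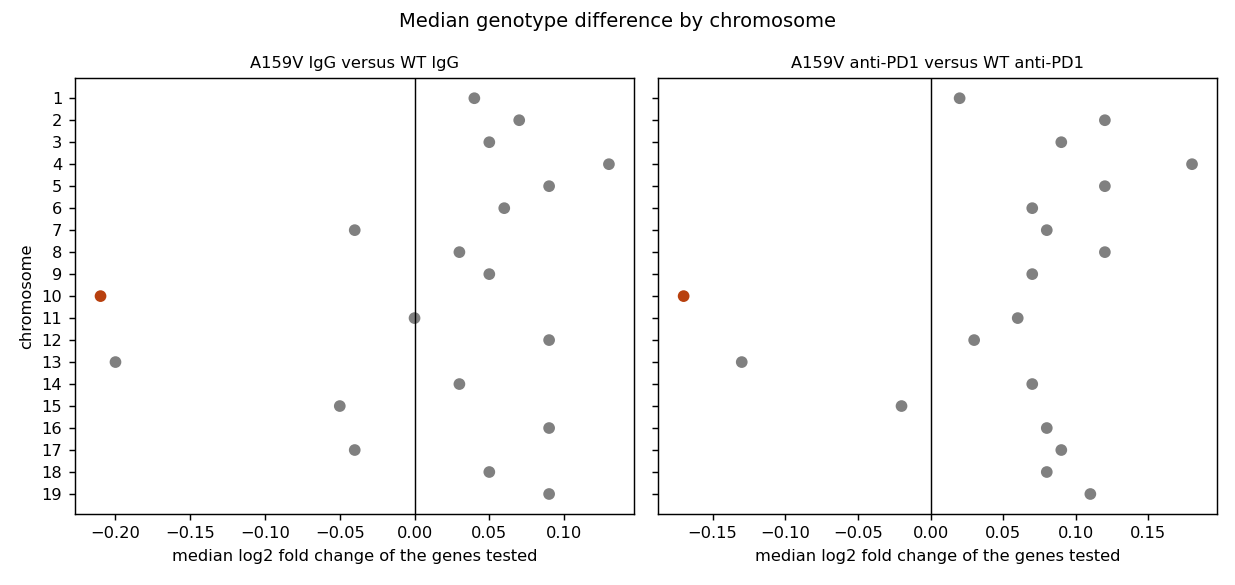
Median log2 fold change of the genes tested on each of the 19 autosomes (vertical axis, chromosome number) in both genotype comparisons, with chromosome 10 in red. Chromosome 10 sat lowest at -0.21 and -0.17 and chromosome 13 next to it at -0.20 and -0.13.

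Individual samples showed the same order. After each gene was centered on its mean log2 CPM over the 12 samples, the median over members was -0.01, 0.15 and 0.16 in WT IgG replicates 1, 2 and 4 and 0.15, 0.12 and 0.18 in WT anti-PD1. A159V IgG replicates 1, 2 and 5 had -0.09, -0.07 and -0.34, and A159V anti-PD1 samples -0.12, -0.04 and -0.11. All 6 A159V samples lay below all 6 WT samples, and the lowest, A159V IgG replicate 5, was also the lowest in the flanks before (-0.31) and after (-0.46) the window. Without A159V IgG replicate 5 the median log2 fold change under IgG was -0.37, as with it. The median of all genes moved from 0.02 to -0.06, so the window lay 0.31 below all genes without that sample and 0.38 below with it. The summed level of the members without the 3 most abundant, Rps12, Sgk1 and Gm10335, was 1333 ± 19.5 CPM in WT IgG and 1392 ± 47.3 in WT anti-PD1, against 1155 ± 129 and 1154 ± 15.6 CPM in the A159V groups under IgG and anti-PD1 (SD, n = 3).

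**Figure D3:**
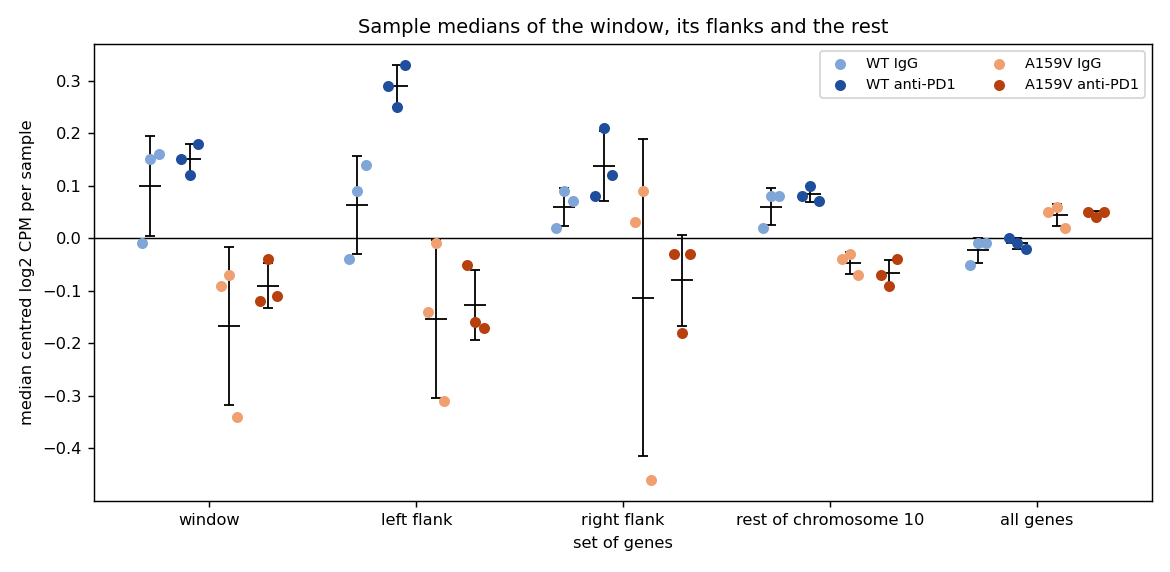
Median centered log2 CPM per sample (vertical axis) of the window, both flanks, the rest of chromosome 10 and all genes tested (horizontal axis), with 3 samples per group as points, the group mean as a bar and the SD as whiskers. A159V samples lay below WT samples in the window and in the rest of chromosome 10, and above them over all genes, with A159V IgG replicate 5 at -0.34 in the window and -0.46 in the flank after it.

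Members with a mean of at least 10 CPM, 27 in number, had medians of -0.16 in both comparisons, against 0.11 and 0.13 for all genes at that level and -0.07 in both for the rest of chromosome 10. Of the 11 members below 1 CPM, 9 met the count rule through the WT samples alone and 1 through the A159V samples alone, so the sign of their difference was largely set by the rule and no median is given for them. Of the 11 members at or below a halving under IgG 7 met the rule through the WT samples alone, and of the 12 under anti-PD1 6 did. For 29 of the 49 members under IgG and 28 under anti-PD1 the 95% interval of the log2 fold change lay wholly above -1. A halving was thus outside the interval for 59.2% and 57.1% of members, against 75.1% and 77.4% of all genes. For 15 and 16 members the interval lay wholly below 0, or 30.6% and 32.7%, against 18.3% and 16% of all genes. Gm10825, Enpp1 and Enpp3 had intervals wholly below 0 in both comparisons and met the count rule through the WT samples alone. For 4 and 1 members the interval lay wholly above 0, as it did for 3155 and 2843 of all 14340 genes. For 9 and 7 it held both 0 and -1, so at this depth neither could be told from the estimate.

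**Figure D4:**
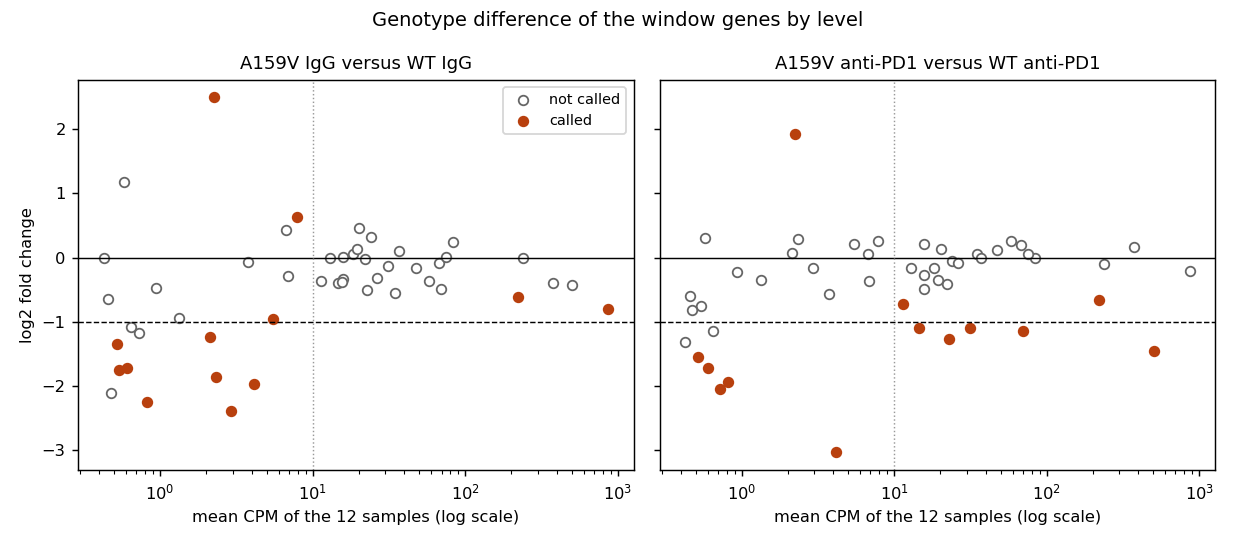
Log2 fold change of the 49 members (vertical axis) against their mean CPM over the 12 samples (horizontal axis, log scale) in both genotype comparisons; filled points were called, the dotted line is at 10 CPM and the dashed line is a halving. Under IgG 9 of the 11 members called lower sat left of 10 CPM, and under anti-PD1 5 of 12.

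Neighboring members differed in size and often in sign. Under IgG 34 of 48 neighboring pairs (70.8%) had log2 fold changes of the same sign, and under anti-PD1 25 of 48 (52.1%), where 55.2% and 55.8% of neighboring pairs did so over all genes. The pairs include Rps12 and its snoRNAs, which share reads, and members that met the count rule through the WT samples alone. The longest run below 0 held 10 members from Ccdc28a to Bclaf1 under IgG and 11 from Reps1 to Bclaf1 under anti-PD1, and both runs span Ifngr1. Both hold Arfgef3 and 4933406P04Rik, whose entry through the WT samples alone favored a value below 0. Reps1 was at 0.0 under anti-PD1 after rounding, and nothing is read from the length of the runs. Many values within these runs were small, such as Bclaf1 at -0.01 and -0.10 and Map3k5 at -0.02 and -0.41. The list was also cut into 3 parts by position. The median of the first and second part was -0.34 and -0.33 under IgG and -0.08 and -0.35 under anti-PD1. Gm20655 and Txlnb in the first part and Arfgef3 and 4933406P04Rik in the second met the count rule through the WT samples alone. The last part, from Raet1e to Enpp3, is given no median. Gm26581, Gm10825, Ccn2, Enpp1 and Enpp3 in it met the rule that way, and Rps12 and its snoRNAs share reads. Both comparisons were below 0 for 29 members, above 0 for 8 (Fuca2, Adat2, Aig1, Mtfr2, Hbs1l, Raet1e, Vnn1 and Stx7) and of opposite sign for 12. Called lower in both were 5 members, Plagl1, Cited2, Gm10825, Enpp1 and Enpp3, called higher in both was Fuca2, and 29 were called in neither. Of the 5, Gm10825, Enpp1 and Enpp3 met the count rule through the WT samples alone. The shares of all genes with such combined calls are not given here, so nothing is read from these counts.

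Transcription and chromatin regulators in the window had medians of -0.16 under IgG and -0.57 under anti-PD1, and 6 of 7 members were below 0 in each. Plagl1 (ENSMUSG00000019817, chr10:13060504-13131694) was at 9.29, 5.08 and 3.31 CPM in WT IgG and 9.63, 8.05 and 6.90 in WT anti-PD1. A159V samples had 2.01, 1.06 and 1.49 CPM under IgG and 1.36, 0.797 and 0.834 under anti-PD1. The groups did not overlap, WT IgG samples spread widely, and the log2 fold change was -1.96 (SE 0.38) under IgG and -3.03 (SE 0.39) under anti-PD1. Cited2 (ENSMUSG00000039910, chr10:17723218-17725674), which competes with hypoxia-inducible factor for its co-activator, was at 271, 253 and 293 CPM in WT IgG, and at 260, 224 and 322 in WT anti-PD1. In A159V tumors it was at 198, 171 and 163 CPM under IgG and 141, 201 and 169 under anti-PD1, again with no overlap. Its log2 fold changes were -0.62 (SE 0.16) and -0.66 (SE 0.16). In contrast, Bclaf1, a nuclear RNA-processing factor of similar abundance, was at 225 ± 15.5 CPM (WT) and 223 ± 54.3 CPM (A159V) under IgG and at 263 ± 13.6 and 246 ± 10.3 CPM under anti-PD1 (SD, n = 3), and its intervals reached from -0.36 to 0.34 and from -0.45 to 0.25. Tbpl1, a TATA-binding protein relative, had values of -0.16 and 0.11, and Hivep2, a large zinc finger gene, 0.32 and -0.05. Heca, called lower under anti-PD1 at -1.10, had -0.39 under IgG.

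The list drawn up for cytokine receptors and immune signaling, without Ifngr1, had medians of -0.02 and -0.41 over 5 members. It includes Slc18b1, a transporter gene, and Vnn1, an enzyme gene. Tnfaip3 was at 88.7, 91.1 and 80.4 CPM in WT IgG and 94.9, 59.5 and 116 in WT anti-PD1. A159V samples had 42.7, 76.8 and 65.9 CPM under IgG and 48.1, 34.5 and 39.2 under anti-PD1. Genotypes did not overlap within either treatment but did over all 12 samples. The log2 fold change was -0.49 (SE 0.24) under IgG and -1.15 (SE 0.25) under anti-PD1. Map3k5, the stress kinase ASK1, had -0.02 and -0.41, Stx11, a syntaxin of cytotoxic granule release, 0.05 and -0.16, and Slc18b1, a polyamine transporter, -0.36 and -0.72. Vnn1, a pantetheinase gene at a mean of 0.579 CPM, had 1.18 and 0.31 and was not called. The receptor chains Il20ra and Il22ra2, which lie beside Ifngr1, and Myb did not meet the count rule.

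Sgk1 (ENSMUSG00000019970, chr10:21882184-21999903) was the second most abundant member. It was at 488, 426 and 518 CPM in WT IgG and at 863, 768 and 971 in WT anti-PD1. A159V IgG samples had 343, 410 and 315 CPM and A159V anti-PD1 samples 385, 222 and 340. All A159V samples were below all WT samples, with a log2 fold change of -0.42 (SE 0.19) under IgG and -1.46 (SE 0.19) under anti-PD1. The other signaling genes, Map3k5, Ahi1 and Eya4, were not called in either comparison. Ahi1, a ciliary protein gene, had 0.13 and -0.35, and Eya4, a phosphatase and transcription co-factor, -0.07 and -0.57.

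Of the 6 matrix, adhesion and surface genes, Ccn2, Enpp1 and Enpp3 met the count rule through the WT samples alone, so no median is given for this role, and all but Adgrg6 and Nhsl1 were below 2 CPM. Enpp1, which generates pyrophosphate and hydrolyses cGAMP outside cells, was at 1.69, 0.856 and 1.41 CPM in WT IgG and 1.45, 1.27 and 1.28 in WT anti-PD1. A159V samples had 0.423, 0.288 and 0.106 CPM under IgG and 0.327, 0.478 and 0.223 under anti-PD1, close to what 3 counts amount to. Its neighbor Enpp3, a related ectoenzyme, was at 0.546 to 0.983 CPM in WT samples and 0.192 to 0.372 in A159V samples. Neither gene overlapped between genotypes, and these low levels stood beside fibroblast marker sums that were also lower in A159V. Ccn2, a matricellular growth factor, had -2.10 (SE 0.83) and -0.81 (SE 0.78) and was not called. Adgrg6, an adhesion G protein-coupled receptor, was at 27.4 ± 7.52 CPM (WT) and 25.1 ± 4.93 CPM (A159V) under IgG and at 49.5 ± 4.80 and 23.3 ± 3.30 CPM under anti-PD1 (SD, n = 3). It was called lower under anti-PD1 at -1.09 and not under IgG at -0.13, and the difference between the comparisons did not pass (adjusted p = 0.206 by edgeR). Nhsl1, a member of the Nance-Horan syndrome protein family, had -0.50 under IgG and was called lower under anti-PD1 at -1.26. Map7, a microtubule-associated protein gene, had -0.94 and -0.35.

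RNA and translation genes had medians of -0.09 and 0.05 over 7 members. Rps12 (ENSMUSG00000061983, chr10:23785183-23787275, minus strand), the most abundant member, was at 1910, 1115 and 806 CPM in WT IgG and 766, 876 and 715 in WT anti-PD1. A159V samples had 741, 656 and 810 CPM under IgG and 678, 533 and 820 under anti-PD1. WT IgG replicates 1 and 2 stood above all other samples, and the log2 fold change of -0.80 (SE 0.26) under IgG compared with -0.21 (SE 0.26) under anti-PD1. The snoRNAs Snora33, Snord100 and Gm23130, whose whole annotated length is contained in Rps12 transcripts, had -2.38, -1.86 and -0.95 under IgG and -0.17, 0.29 and 0.21 under anti-PD1, and their reads cannot be told apart from those of Rps12. Hbs1l, a ribosome rescue factor, was at 73.6 ± 2.23 CPM (WT) and 74.3 ± 6.65 CPM (A159V) under IgG and at 75.5 ± 8.62 and 78.1 ± 4.39 CPM under anti-PD1 (SD, n = 3), with intervals from -0.25 to 0.28 and from -0.21 to 0.31. Sf3b5, a splicing factor subunit, had -0.37 and 0.26, and Ltv1, a factor of small subunit assembly, -0.09 and 0.19. Adat2, a subunit of a tRNA adenosine deaminase, had 0.43 and 0.06, and Abracl, a small actin regulator, -0.55 and 0.05.

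Fuca2 (ENSMUSG00000019810, chr10:13499540-13519035), a secreted fucosidase gene, was the member with the largest difference in the other direction. It was at 0.874, 0.367 and 0.452 CPM in WT IgG and 1.09, 1.07 and 1.06 in WT anti-PD1. A159V samples had 3.60, 2.98 and 3.08 CPM under IgG and 3.92, 3.67 and 4.67 under anti-PD1. The log2 fold change was 2.49 (SE 0.31) under IgG and 1.92 (SE 0.28) under anti-PD1, and the groups did not overlap. Among the other peroxisome, mitochondrial and metabolic members, Pex3, needed for peroxisome membrane assembly, had -0.34 and -0.49. Pex7, an import receptor of peroxisomes, had -0.38 and -0.27, and Mtfr2, a mitochondrial fission regulator, 0.01 and 0.21. Aig1, an androgen-induced lipid hydrolase, was called higher under IgG at 0.63 and had 0.26 under anti-PD1. Vesicle traffic genes had medians of 0.05 and -0.08, with Stx7, an endosomal syntaxin, at 0.10 and 0.00, and Reps1, an endocytosis adaptor, at 0.24 and 0.00. Vta1, a factor of multivesicular body sorting, had -0.32 and -0.08, and Arfgef3, at a mean of 0.426 CPM, -0.01 and -1.32.

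**Figure D5:**
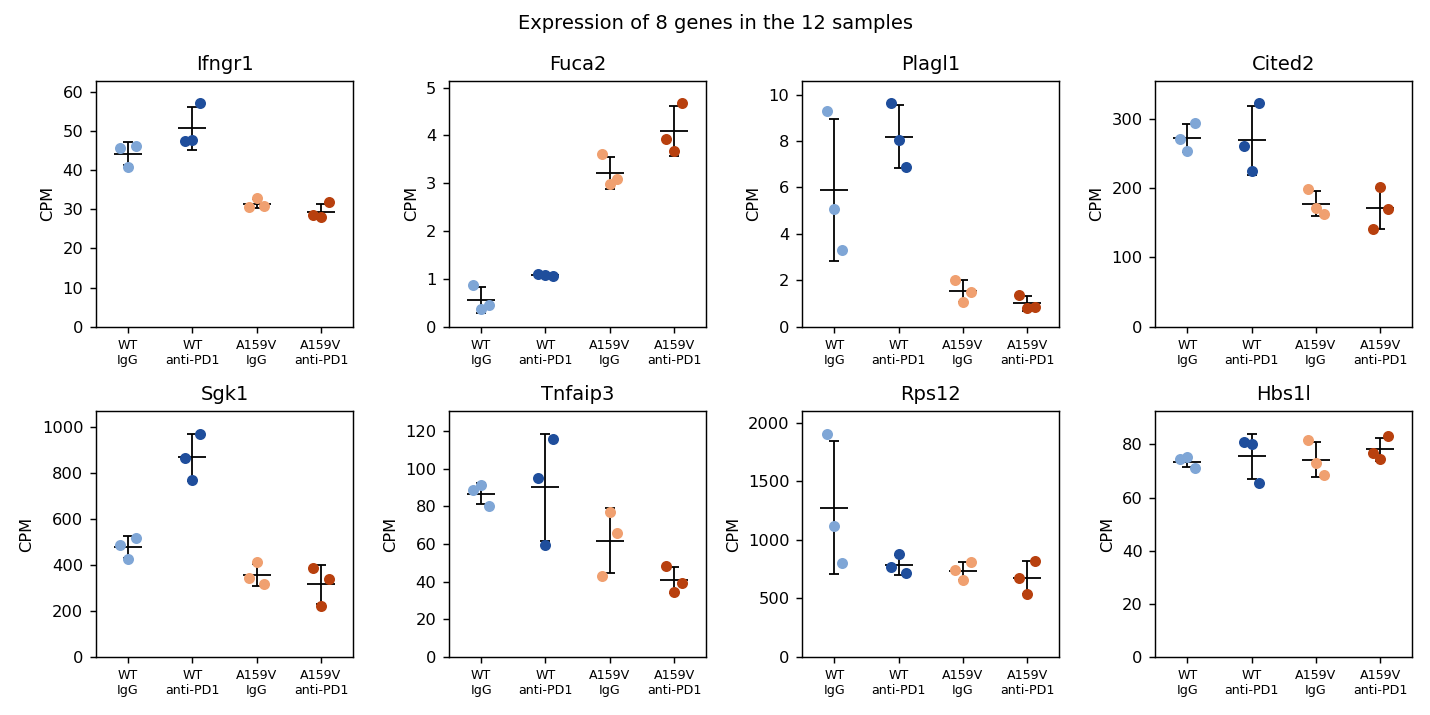
CPM (vertical axes, from 0) of Ifngr1 and 7 members in each of the 12 samples, with 3 points per group (horizontal axes), the group mean as a bar and the SD as whiskers. Ifngr1, Plagl1, Cited2 and Sgk1 were lower in all A159V samples, Fuca2 was higher in all of them, Tnfaip3 and Rps12 overlapped between genotypes over all 12 samples, and Hbs1l stayed at 65.5 to 83.1 CPM in every sample.

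Counted over samples of both treatments, 9 members were lower in all 6 A159V samples than in all 6 WT samples (Plagl1, Cited2, Txlnb, Pex7, Sgk1, Gm10825, Slc18b1, Enpp1 and Enpp3), where 6.82% of all genes were, and 1 member, Fuca2, was higher, where 10.3% of all genes were. Of the 9, Txlnb, Gm10825, Enpp1 and Enpp3 met the count rule through the WT samples alone. Several members could carry reads of other genes. Gm10335 (chr10:14523078-14523545), at 375 CPM, is a processed pseudogene that matched 21 other genes at 95% identity or more, among them the ribosomal protein gene Rpl23a. Rps12 matched 27 other genes, and Hbs1l 4, the closest being Gm9923 at 99.9% over 1836 bases. Raet1d matched Raet1e at 96.0% identity, and the long intergenic RNAs Gm10825 and Gm26581 matched each other at 99.6% over 4480 bases. Gm20655 lies antisense to Txlnb, and whether counting used strand is not stated. Values of these members are uncertain. Gm10335 had log2 fold changes of -0.39 under IgG and 0.17 under anti-PD1, and Raet1e, which encodes a ligand of the NKG2D receptor, 0.46 and 0.14. The RNA Gm10825 had -1.71 in both comparisons, Gm20655 -1.75 and -0.76, and Txlnb, a taxilin gene, -1.17 and -2.04, all 3 at means below 1 CPM. Without Gm10335, Rps12 and its 3 snoRNAs, Raet1d, Raet1e, Gm10825, Gm26581 and Gm20655, the medians of the list were -0.32 under IgG and -0.35 under anti-PD1. Hbs1l and other members with matches over part of a transcript, such as Hivep2, Abracl and Adgrg6, were kept.

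The response to anti-PD1 was not used to draw the window and was tested with edgeR over all genes. In WT tumors 1 of 49 members passed, where 0.628% of all genes did: B230208H11Rik, a long intergenic RNA, was at 3.93, 4.16 and 3.01 CPM in WT IgG and at 1.66, 1.54 and 1.56 in WT anti-PD1. The groups did not overlap, and its level fell by 1.22 on the log2 scale (SE 0.23, adjusted p = 0.0379 by edgeR). Leaving out any 1 sample other than WT IgG replicate 4 or A159V IgG replicate 5 ended this call, with an adjusted p of 0.0546 to 0.144 by edgeR, and the leukocyte marker sums that differed between these groups are given above. Sgk1 had a log2 fold change of 0.86 (SE 0.19, adjusted p = 0.0581 by edgeR), with all WT anti-PD1 samples above all WT IgG samples, and did not pass. Neither did Adgrg6 at 0.85 (SE 0.21, adjusted p = 0.0648 by edgeR) or Snord100 at -1.40 (SE 0.37, adjusted p = 0.0737 by edgeR). In all, 16 of 49 members had an unadjusted p under 0.05 by edgeR, where 3937 of all 14340 genes tested did. The number of members called rose to 12 without WT IgG replicate 4, and 6 were called by DESeq2. The log2 fold change in WT went with the exon length of the gene over members (Spearman's rho 0.61 over 49 genes that share the same 6 libraries) and over all genes (0.44).

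In A159V tumors 0 of 49 members passed by edgeR, where 0.0% of all genes did, and DESeq2 called 0 as well. An unadjusted p under 0.05 by edgeR was found for 2 members (Tnfaip3 at -0.61 and Snora33 at 1.09) and for 521 of all 14340 genes. Ifngr1 had 0.20 (SE 0.12) in WT and -0.10 (SE 0.12) in A159V, and neither passed. The difference between genotypes in the response passed for 0 of 49 members by edgeR, where 0.00697% of all genes passed. DESeq2 called 3 (Sgk1, Snora33 and Snord100). By edgeR 8 members had an unadjusted p under 0.05, as did 2517 of all 14340 genes. The smallest adjusted p was 0.153 by edgeR, for Snord100 at 2.15 (SE 0.53), and Sgk1 had -1.03 (SE 0.27, adjusted p = 0.172 by edgeR). These contrasts reuse the samples of the genotype comparisons and are not independent of them. Without WT IgG replicate 4, 6 members passed for the difference, Sgk1 and Snord100 among them.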

How the data were processed

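Bulk RNA-seq of isolated MC38 tumor cells was analyzed in 12 samples, 4 groups of 3 mice. The authors aligned paired reads to mm10 with STAR, counted them per gene with summarizeOverlaps and deposited raw counts. The counting mode, strand setting and tool versions are not given in the sources used here. The deposited counts were used as they stand. Of 33217 Ensembl identifiers, 31980 matched GENCODE M21. Genes were tested with edgeR 4.0.16 (R 4.3.3): filterByExpr over the 4 groups, TMM scaling, a quasi-likelihood fit of all 12 samples and Benjamini-Hochberg adjustment over 14340 genes. Calls required an adjusted p below 0.05 together with a log2 fold change beyond 0.3 in either direction. SE was taken as the absolute log2 fold change divided by the square root of F. The procedure was tested on simulated data. Sequence identity used blastn 2.17.0 against M21 transcripts, at 95% identity over 100 bases or more. For shorter transcripts, such as snoRNAs, a match over nearly the whole length was also kept. P-values measure the spread between mice, 3 per group. Counting floors cover counting error only.

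The members, the window and the role lists were chosen with earlier results of these data known. Named with values were Ifngr1, the genes beside each limit of the window, the 12 most abundant members, members called in an anti-PD1 contrast, the 6 lowest and 6 highest members of each genotype comparison, and members of the role lists. Other members are named only where a count of them was given. Alternatives were RLE and upper-quartile scaling, other count filters, DESeq2 1.42.0, voom with limma 3.58.1, only the groups compared, a replicate block and leaving out each sample. Replicate numbers did not pair the samples: 3 of 13 same-number pairs had deviations correlated above 0.1.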

Additional observations from a re-analysis of the deposited data

How the results depend on the processing

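The median log2 fold change of the members stayed below 0 in both genotype comparisons under every alternative that was run. Under IgG (-0.37) it moved by more than the SD between replicates (0.09) to -0.51 with upper-quartile scaling, where the median of all genes also moved from 0.02 to -0.12, to -0.20 with the replicate block and to -0.16 over members of at least 10 CPM. Under anti-PD1 (-0.23) it moved to -0.33 with upper-quartile scaling (all genes -0.03), -0.33 with the exon length trend removed and -0.37 with a leukocyte marker score as a covariate. It was -0.13 over members of at least 1 CPM. Over the 39 members left without Gm10335, Rps12 and the others listed with them above for shared reads it was -0.35. Leaving out 1 sample gave -0.44 to -0.27 and -0.31 to -0.23. The last alternatives (level limits, shared reads, exon length, leukocyte score and the count rule within each genotype) were chosen after seeing the data. Members called lower under IgG (11) were 7 with only the groups compared, 7 over members that met the count rule within each genotype, 7 to 14 without 1 sample (7 without A159V IgG replicate 1 or 2) and 0 with the leukocyte score. Under anti-PD1 (12) they were 18 with only the groups compared (46 members tested), 8 over members that met the count rule within each genotype, 8 to 15 without 1 sample (8 without A159V anti-PD1 replicate 3) and 0 with the leukocyte score, a term that also left 267 and 3 of the 4010 and 3075 calls over all genes and raised the median SE of members from 0.23 to 0.378 and from 0.235 to 0.729. Members called for anti-PD1 in WT (1) were 5 without the filter on low counts, 6 by DESeq2, 15 with the replicate block, 0 with only the groups compared, 0 with the leukocyte score and 0 to 12 without 1 sample, with 4 without A159V IgG replicate 5 and 12 without WT IgG replicate 4. For the genotype difference in that response (0) they were 3 by DESeq2, 9 with the replicate block and 0 to 6 without 1 sample, 6 being without WT IgG replicate 4. In A159V the count was 0 under every alternative run. The replicate numbers are only shared numbers: same-number correlations ran from -0.18 to 0.20, 3 of 10 samples correlated best with their own number, and the block also takes up WT IgG replicate 4 and A159V IgG replicate 5, whose numbers no other sample has. No named gene that was called changed direction. At this depth the log2 fold change of members below 1 CPM rested on few counts per sample.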
